A study of Mus musculus with 12 samples.

Results

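Muscle takes up glucose after a meal by a relay of proteins. Insulin binds its receptor (Insr), which phosphorylates the adaptor proteins Irs1 and Irs2, and these recruit lipid kinases that activate Akt2. Akt2 phosphorylates Tbc1d1 and Tbc1d4 (also called AS160), a pair of Rab GTPase-activating proteins that hold vesicles loaded with the glucose transporter GLUT4 (Slc2a4) inside the cell until they are phosphorylated. Contraction moves GLUT4 to the surface as well, partly through Tbc1d1 and Tbc1d4. The transporter GLUT1 (Slc2a1) stands at the surface without insulin, and glucose that has entered is trapped by phosphorylation through hexokinase 1 (Hk1, the form of most tissues) or hexokinase 2 (Hk2, the form that predominates in muscle).

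These 10 genes were read from a table of gene expression in the extensor digitorum longus (EDL), which is a hind limb muscle of mainly fast-twitch fibres. They were found by their gene symbols, and all 10 were among the 17752 genes listed. Each of 4 groups held 3 libraries from male mice. Sedentary labelled WT, sedentary labelled strNrip1-/-, trained labelled WT and trained labelled strNrip1-/- animals entered the study at 8 weeks of age. Training was voluntary running on a wheel for 8 weeks, and the other animals were kept sedentary for the same time. The wheel was taken away before tissue was collected. In the strNrip1-/- line, Cre recombinase under the muscle creatine kinase promoter was crossed to Nrip1 fl/fl mice (C57BL/6J) to delete the coding exon of Nrip1 in heart and skeletal muscle. WT mice were littermates. Nrip1 encodes RIP140, a corepressor of nuclear receptors. Animals that ran little were left out by the study, so the trained groups are selected runners. The labels number the libraries within a group but do not say how they were collected, so the p-values measure the spread between these samples.

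Levels are in FPKM, fragments per kilobase of transcript relative to library depth and as scaled between libraries by the authors, a unit that allows levels to be compared between genes. From the spacing of low values, the depth was estimated at 20.05 to 28.9 M fragments per library, at which 3 fragments on a transcript of 2 kb correspond to 0.0519 to 0.0748 FPKM. Nrip1 went against the genotype labels, with 2.53 to 4.76 FPKM in the labelled WT libraries and 14.9 to 20.7 FPKM in the labelled strNrip1-/- libraries. The directions below follow the labels. On average over both training states, the fast fibre genes Actn3 and Myh4 were called lower in labelled strNrip1-/- libraries (log2 differences -0.83 and -0.37) and the endothelial genes Tie1, Cdh5 and Vwf were called higher (0.33, 0.28 and 0.47). The markers of fast skeletal muscle were all present, and their summed level was 76864 to 121345 FPKM over the 12 libraries. In 3 libraries (labelled WT sedentary replicate 2, labelled WT trained replicate 2 and labelled strNrip1-/- sedentary replicate 1) the slow myosin Myh7 was at 19.4 to 49.99 FPKM, against 1.07 to 5.74 FPKM in the other 9. The slow troponin Tnnt1 was at 64.2 to 127 FPKM in these 3, against 18.9 to 43.9 FPKM in the other 9. Below, these 3 are called high in slow fibre markers on the basis of such genes. The sum of 10 slow and oxidative markers, Myh2 among them, did not set them apart. It was 674 to 995 FPKM in the 3 and 777 FPKM in labelled strNrip1-/- trained replicate 2, which was kept. For the members and the pathway genes chosen by a rule stated below, calls that ended without these 3 libraries are named with their values. The calls of other genes, and averaged calls of pathway genes, were not followed in this way.

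A difference was called where the adjusted p of limma was below 0.05 and the fold change was above 1.2. The test was fitted to log2(FPKM + 0.5) of the 12744 genes whose mean reached 0.5 FPKM, and p-values were adjusted by the Benjamini-Hochberg method over all of them. All 10 members passed that filter, and each of their group means was above it.

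The insulin and glucose uptake genes spanned a range of expression from 2.13 FPKM for Irs1 to 254 FPKM for Slc2a4, as means over the 12 libraries. Slc2a4 was the most expressed member in each library, and its lowest library (222 FPKM) lay above the highest library of the next gene. Akt2 followed with a mean of 104 FPKM and Hk2 with 94.1 FPKM, and these neighbours were not separated by their ranges, although Akt2 was the higher gene in 11 of 12 libraries. Tbc1d1 (19.0 FPKM) was separated from Hk2 above it and from Insr (7.17 FPKM) below it. From Insr down, ranges of neighbours overlapped throughout. Tbc1d4 averaged 6.30 FPKM, Irs2 4.45 FPKM, Hk1 4.33 FPKM and Slc2a1 4.25 FPKM, and the order of Irs2 against Hk1 and of Hk1 against Slc2a1 was split evenly, 6 libraries of 12 each way. Thus GLUT4 and the distal kinase Akt2 were abundant transcripts, while the receptor and its 2 substrates were among the rarer ones.

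The spread over the 12 libraries divided the members differently. Akt2, Insr and Slc2a4 had the lowest coefficients of variation, at 5.02%, 6.36% and 6.44%. Hk1, Tbc1d4 and Irs1 had the highest, at 35.7%, 34.5% and 33.5%. For Irs1 the estimated 192 to 798 fragments per library imply a counting error of 3.54% to 7.22% alone, well under the observed spread. For Irs2 the figure was 3.39% to 5.12%, against a spread of 19.6%.

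**Figure D1:**
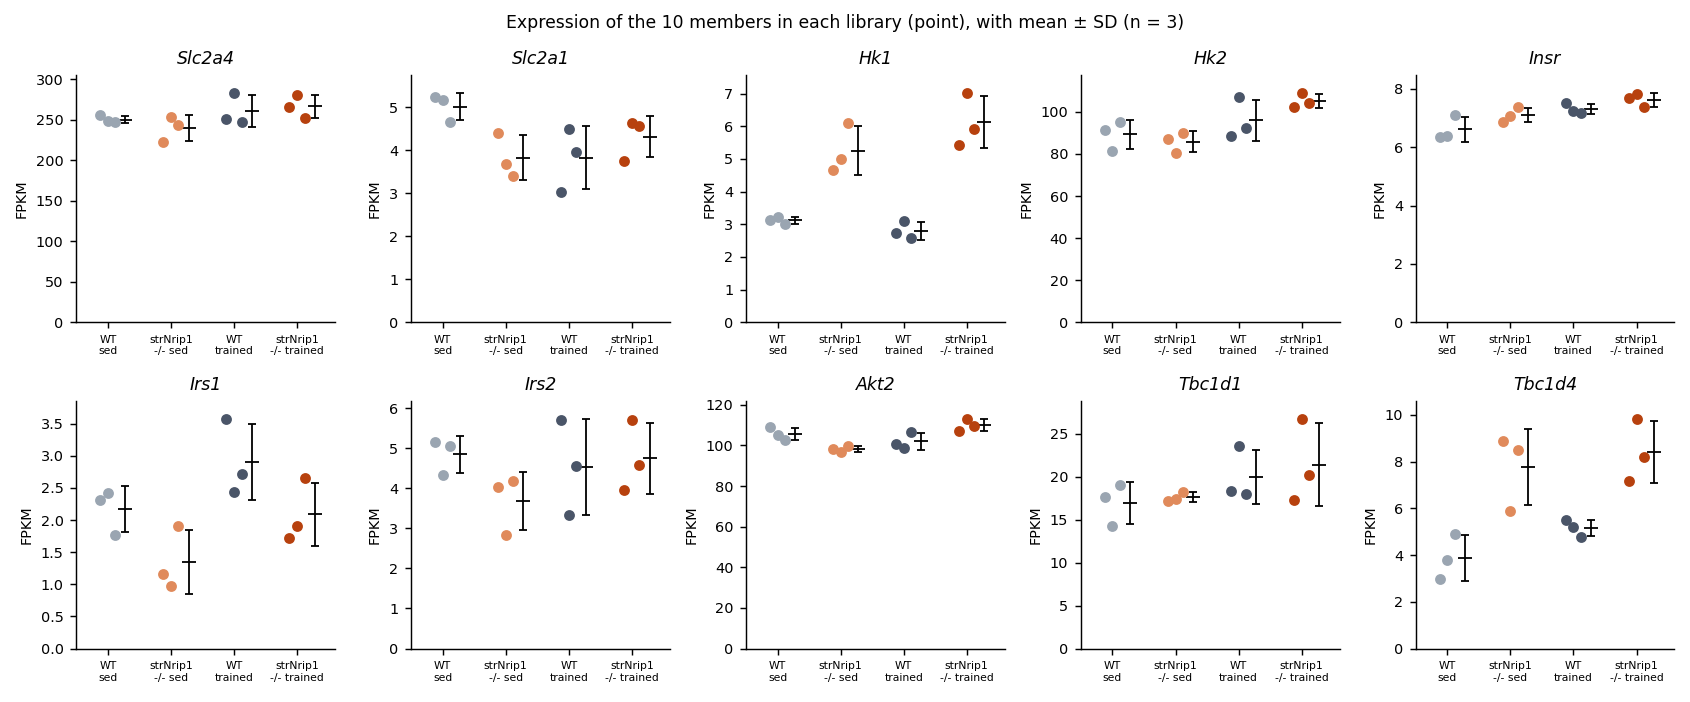
FPKM (vertical axis, from 0) of the 10 members in the 4 groups, with 1 point per library and the mean ± SD of 3 libraries beside the points. Hk1 and Tbc1d4 sit higher in the labelled strNrip1-/- libraries in both training states, whereas Slc2a4 stays between 222 and 283 FPKM in all 12 libraries.

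The first comparison asked what the strNrip1-/- genotype changed in sedentary and in trained muscle. Hk1 was higher in labelled strNrip1-/- EDL in both states, and Tbc1d4 was called higher in sedentary EDL. The insulin receptor, its substrates, Akt2, GLUT4, GLUT1, Hk2 and Tbc1d1 did not pass the test in either state. In sedentary muscle 2 of the 10 members were called, both higher, where 3.51% of all genes tested were called (1.92% higher and 1.59% lower). In trained muscle 1 of 10 was called, where 5.98% of all genes were called (3.21% higher and 2.77% lower). These backgrounds themselves moved with scaling. In sedentary muscle 245 of 447 called genes were higher, against 121 of 652 with each library brought to the same sum of FPKM and 397 of 480 with the same sum over genes not encoded in mitochondria. In trained muscle 409 of 762 were higher, against 549 of 679 and 466 of 615.

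Hk1, on chromosome 10 (62268855 to 62379908, minus strand, GRCm38), was the member with the lowest p-value for genotype. In sedentary muscle its level was 3.14, 3.22 and 3.02 FPKM in the labelled WT libraries and 4.65, 5.01 and 6.09 FPKM in the labelled strNrip1-/- libraries. In trained muscle the levels were 2.72, 3.10 and 2.58 FPKM and 5.44, 7.02 and 5.92 FPKM. Every labelled strNrip1-/- library was above every labelled WT library, with 4.65 FPKM as the lowest of the former and 3.22 FPKM as the highest of the latter. The log2 fold change was 0.66 (SE 0.12, limma adjusted p = 0.0138) in sedentary and 1.002 (SE 0.12, limma adjusted p = 0.00121) in trained muscle, and 0.83 (limma adjusted p = 1.34e-04) averaged over both states. It was called in both states, as were 2.11% of all genes, and 8.8% were called on average over the states. The trained call was made under every alternative run that kept the gene in the test. The sedentary call was lost without the 3 libraries high in slow fibre markers (adjusted p = 0.0630), without labelled WT sedentary replicate 1 (0.0571) or without replicate 3 of that group (0.0565). It was also lost with the same sum of FPKM in each library (0.0672) and with the 2 groups alone (0.0574).

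Hk2, on chromosome 6 (82725025 to 82774454, minus strand), gave no such difference between genotypes. Its means were 89.3 ± 7.06 FPKM in labelled WT and 85.8 ± 4.96 FPKM in labelled strNrip1-/- sedentary muscle (SD, n = 3), and 96.0 ± 9.72 and 105 ± 3.44 FPKM in trained muscle. The 95% interval of the log2 difference was -0.24 to 0.13 in sedentary and -0.05 to 0.32 in trained muscle. The muscle hexokinase thus exceeded Hk1 by more than 10-fold in each library, and the rarer form carried the genotype difference.

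Tbc1d4, on chromosome 14 (101442360 to 101609191, minus strand), had the largest fold change of the members in sedentary muscle. It was measured at 2.96, 3.79 and 4.90 FPKM in labelled WT and at 8.86, 5.90 and 8.51 FPKM in labelled strNrip1-/- sedentary libraries. In trained libraries the values were 5.48, 5.22 and 4.77 FPKM and 7.19, 9.81 and 8.19 FPKM. The groups did not overlap in either state. The log2 fold change was 0.92 (SE 0.18, limma adjusted p = 0.0208) in sedentary muscle and 0.64 (SE 0.18, limma adjusted p = 0.0663) in trained muscle, the latter short of the threshold. Averaged over both states it was 0.78 (limma adjusted p = 0.00304). The sedentary call was lost without the 3 libraries high in slow fibre markers (adjusted p = 0.197), without labelled WT sedentary replicate 1 (0.0896) or 2 (0.0693), and without labelled strNrip1-/- sedentary replicate 1 (0.0764) or 3 (0.0658). It was also lost with the same sum of FPKM in each library (0.0546) and with the 2 groups alone (0.106). The averaged difference was called in each alternative, with adjusted p between 0.00161 and 0.0386.

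Tbc1d1, the other Rab GTPase-activating protein (chromosome 5, 64156305 to 64351486, plus strand), overlapped between genotypes in both states. Its means were 17.0 ± 2.47 and 17.6 ± 0.573 FPKM in sedentary labelled WT and labelled strNrip1-/- muscle, and 20.0 ± 3.17 and 21.4 ± 4.82 FPKM in trained muscle (SD, n = 3). The 95% intervals of the log2 difference ran from -0.29 to 0.41 and from -0.26 to 0.44.

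For the GLUT4 gene Slc2a4 (chromosome 11, 69942539 to 69948188, minus strand), sedentary libraries gave 255, 248 and 247 FPKM in labelled WT and 222, 253 and 244 FPKM in labelled strNrip1-/- muscle. Trained libraries gave 251, 283 and 247 FPKM and 266, 280 and 252 FPKM. All groups overlapped. The 95% interval of the genotype difference on the log2 scale was -0.23 to 0.10 in sedentary and -0.13 to 0.20 in trained muscle.

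GLUT1 (Slc2a1, chromosome 4, 119108711 to 119137983, plus strand) was at 5.23, 5.17 and 4.65 FPKM in labelled WT sedentary libraries and at 4.40, 3.68 and 3.40 FPKM in labelled strNrip1-/- sedentary libraries. These groups did not overlap, but the log2 difference of -0.36 (SE 0.14) did not pass the test (limma adjusted p = 0.231). In trained muscle the order was not kept, with 3.03, 4.49 and 3.96 FPKM against 3.76, 4.64 and 4.56 FPKM, and the log2 difference was 0.17 (limma adjusted p = 0.562). The summed level of 6 Schwann cell and perineurium markers moved alongside, at 74.7 to 108 FPKM in labelled WT against 51.4 to 74.6 FPKM in labelled strNrip1-/- sedentary libraries and at 49.2 to 64.3 against 61.8 to 97.2 FPKM in trained libraries. Their median log2 difference was -0.36 in sedentary (0 of 6 higher) and 0.36 in trained muscle (6 of 6 higher), with none called. The 8 endothelial markers had a median of 0.21 in sedentary (8 of 8 higher) and 0.23 in trained muscle (7 of 8 higher). The part of either group of cells in the values of Slc2a1 was not tested.

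Among the signalling genes, the substrate Irs1 (chromosome 1, 82233101 to 82291416, minus strand) had the widest intervals. Its sedentary values were 2.32, 2.43 and 1.76 FPKM in labelled WT and 1.15, 0.972 and 1.92 FPKM in labelled strNrip1-/- muscle. The trained values were 3.57, 2.43 and 2.72 FPKM and 1.72, 1.91 and 2.65 FPKM. In each state 1 labelled strNrip1-/- library, replicate 3, reached into the labelled WT range, and the log2 differences of -0.56 and -0.40 did not pass the test (limma adjusted p = 0.209 and 0.316). The averaged difference of -0.48 also missed the threshold (limma adjusted p = 0.0659), although it was called without labelled strNrip1-/- sedentary replicate 3 (0.0194). Exons of Irs1 overlap those of Gm9747 on the opposite strand. Because the kit did not keep strand, reads from the shared stretch could not be told apart by strand. The length of that stretch was not measured. Gm9747 was listed at 5.10 to 11.7 FPKM.

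Irs2 (chromosome 8, 10984681 to 11008458, minus strand) was at 5.15, 4.32 and 5.05 FPKM in labelled WT and at 4.03, 2.84 and 4.17 FPKM in labelled strNrip1-/- sedentary libraries. The groups were narrowly apart, and the log2 difference of -0.37 (SE 0.19) did not pass the test (limma adjusted p = 0.392). In trained muscle the means were 4.53 ± 1.19 and 4.74 ± 0.887 FPKM (SD, n = 3). Irs2, Hk1 and Slc2a1 also have an annotated transcript on the opposite strand that overlaps their exons (9530052E02Rik, Hk1os and Gm12868), none of which was among the genes listed.

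Akt2 (chromosome 7, 27591552 to 27640826, plus strand), the Akt kinase most tied to insulin-stimulated glucose uptake, showed small differences of opposite sign. In sedentary muscle it was at 109, 105 and 103 FPKM in labelled WT and at 98.1, 96.8 and 99.5 FPKM in labelled strNrip1-/- libraries. In trained muscle it was at 101, 98.7 and 107 FPKM and at 107, 113 and 110 FPKM. The labelled strNrip1-/- libraries were all lower in the sedentary state and all higher in the trained state, an order shared by 51 of the genes tested (0.4%). The log2 differences were -0.10 and 0.11, and neither passed the test (limma adjusted p = 0.389 and 0.299). Their difference, 0.21 (SE 0.08), had an unadjusted p of 0.0196 and a limma adjusted p of 0.599 for the interaction.

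The receptor gene Insr (chromosome 8, 3122061 to 3279617, minus strand) moved within 6.34 to 7.82 FPKM over all 12 libraries. Its genotype differences on the log2 scale were 0.10 in sedentary and 0.06 in trained muscle, with overlapping groups in both.

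Counted by separation rather than by the test, the genotype groups did not overlap for 5 of 10 members in sedentary muscle (Hk1 and Tbc1d4 higher, Slc2a1, Irs2 and Akt2 lower), where this held for 20.7% of all genes tested (9.79% higher and 10.9% lower). In trained muscle it held for 3 of 10 (Hk1, Tbc1d4 and Akt2, all higher), where it held for 27.3% of all genes (13.9% higher). Hk1 and Tbc1d4 were separated in the same direction in both states, as were 8.64% of all genes. The median log2 difference of the 10 members was -0.06 in sedentary and 0.10 in trained muscle, beside -0.001 and 0.007 over all genes.

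**Figure D2:**
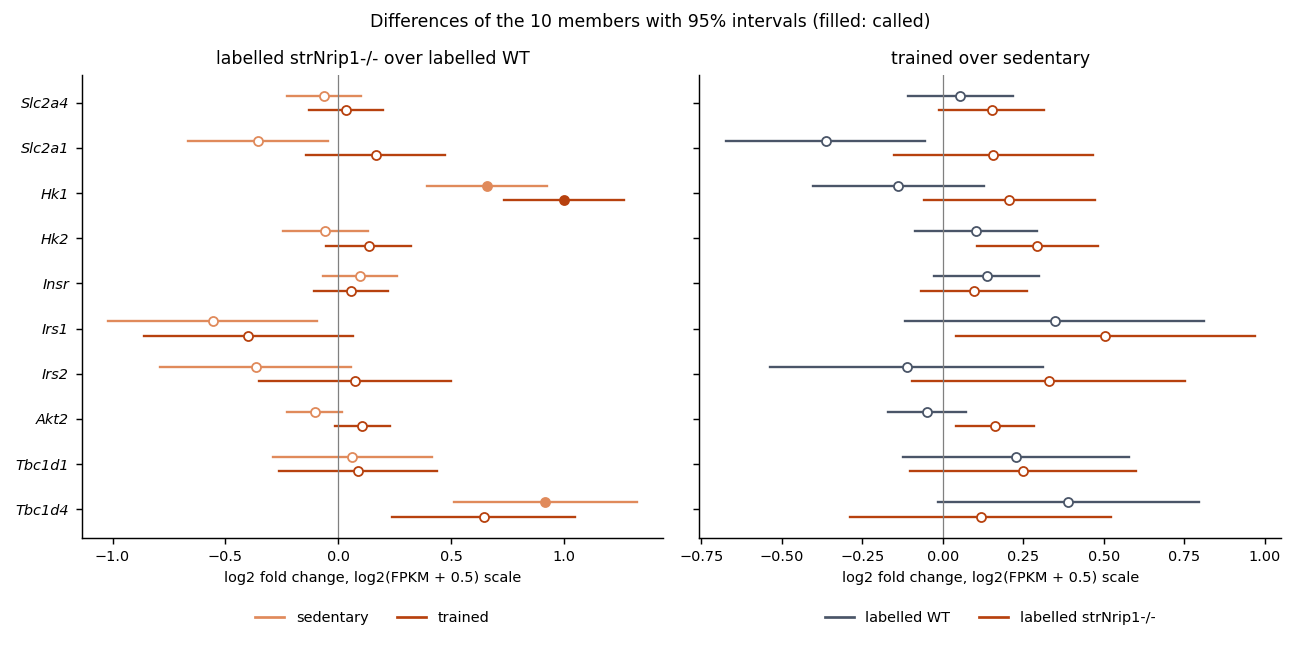
Log2 fold changes of the 10 members on the log2(FPKM + 0.5) scale with 95% intervals from limma, for genotype (left, by training state) and training (right, by genotype label). Filled points are called differences, which are Hk1 in both training states and Tbc1d4 in sedentary muscle, while each training difference is an open point.

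Whole EDL holds other cells than muscle fibres, and in such bulk samples fewer cells of a type and less RNA per cell cannot be told apart. The summed level of 8 endothelial markers was 95.9 to 103 FPKM in labelled WT and 113 to 124 FPKM in labelled strNrip1-/- sedentary libraries, and 97.1 to 108 against 117 to 124 FPKM in trained libraries. It separated the genotypes as Hk1 and Tbc1d4 did, with 8 of 8 and 7 of 8 markers higher, of which none in sedentary and 1 (Tie1) in trained muscle were called. The summed level of 7 adipocyte markers was 12.5 to 25.7 against 43.6 to 117 FPKM in sedentary libraries and overlapped in trained libraries, where it was 35.2 to 77.0 against 43.9 to 114 FPKM. The 7 fast muscle markers summed to 100826 to 111178 against 76864 to 100780 FPKM in sedentary libraries and to 100876 to 121345 against 87107 to 91568 FPKM in trained libraries. The 10 slow and oxidative markers had a median log2 difference of -0.20 in sedentary and -0.32 in trained muscle, with 3 of 10 higher in each state. Of these, Myh2 alone was called, higher in trained muscle (0.71, limma adjusted p = 0.0109). None of these markers was at 0 in all libraries. The part of these cell and fibre types in the differences of Hk1 and Tbc1d4 was not tested.

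The balance within each family was compared next, as the ratio of 2 related genes in the same library, which does not depend on how libraries were scaled. Labels were permuted within each training state, giving 400 arrangements and a smallest possible p of 0.005, and p-values were adjusted over the 4 ratios. Labelled strNrip1-/- EDL had less Hk2 per Hk1 and more Tbc1d4 per Tbc1d1. Hk2 and Tbc1d1 were not called by genotype, and both ratios use the same libraries as the tests of Hk1 and Tbc1d4 above. They are therefore not separate support, and how often other pairs of genes reach the smallest p was not counted. The ratio of Hk2 to Hk1 was 25.3 to 31.6 in labelled WT and 14.8 to 18.7 in labelled strNrip1-/- sedentary libraries, and 32.6 to 35.8 against 15.5 to 18.8 in trained libraries. It was 0.538 times that of labelled WT over both states (exact permutation p = 0.005, the smallest possible, adjusted p = 0.01, two-sided). The ratio of Tbc1d4 to Tbc1d1 was 0.167 to 0.266 against 0.338 to 0.515 in sedentary and 0.221 to 0.299 against 0.367 to 0.415 in trained libraries, 1.71 times that of labelled WT (exact permutation p = 0.005, adjusted p = 0.01).

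The ratio of Irs2 to Irs1 was 1.78 to 2.87 against 2.18 to 3.50 in sedentary libraries and 1.36 to 1.68 against 1.73 to 2.99 in trained libraries. The sedentary groups overlapped. Over both states the fold was 1.36 (exact permutation p = 0.03, adjusted p = 0.04), and with 0.5 FPKM added to both genes the adjusted p was 0.0867. The adjusted p was above 0.05, between 0.0533 and 0.107, in 9 of the 12 tests without 1 library (without any trained labelled WT library, without replicate 1 or 2 of labelled WT or labelled strNrip1-/- sedentary, and without replicate 1 or 2 of labelled strNrip1-/- trained). For GLUT4 over GLUT1 the ratio was 48.0 to 53.0 against 50.4 to 71.8 in sedentary libraries and 62.3 to 82.7 against 55.4 to 70.7 in trained libraries, and the genotypes did not differ in the test (fold 1.06, exact permutation p = 0.52). Between training states none of the 4 ratios passed, with adjusted p from 0.15 to 0.83 by the same exact permutation test.

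**Figure D3:**
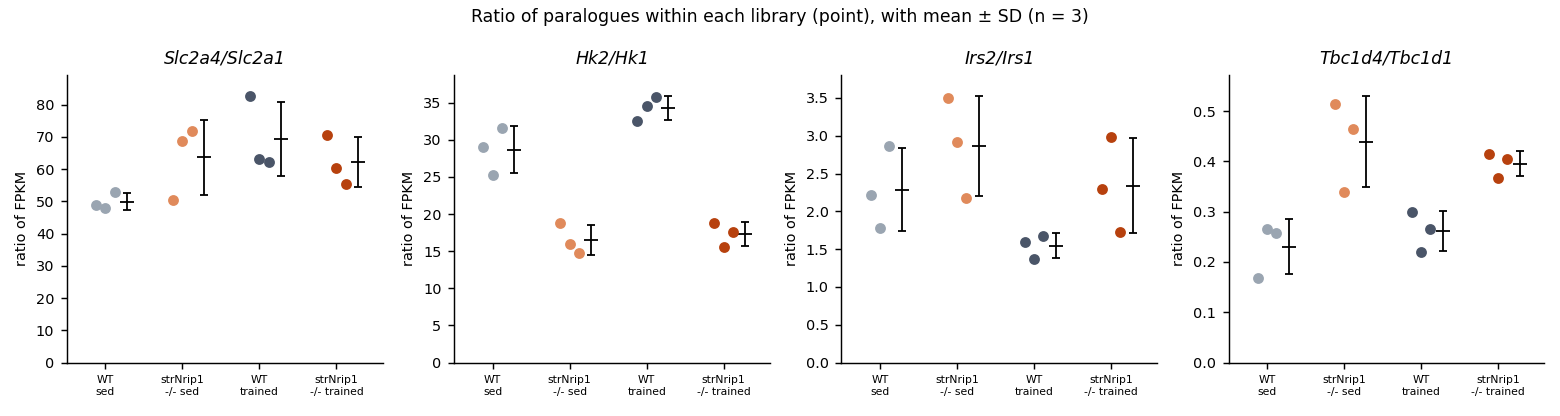
Ratio of the FPKM of 2 related genes within each library (vertical axis, from 0), with 1 point per library and the mean ± SD of 3 libraries. Hk2 over Hk1 lies at 25.3 or more in each labelled WT library and at 18.8 or less in each labelled strNrip1-/- library, and Tbc1d4 over Tbc1d1 lies at or below 0.299 in the former and at or above 0.338 in the latter.

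Promoter sequence was read for the members, to show what related genes share next to their start sites. Sequences are printed for the hexokinases and the Rab GTPase-activating proteins. Windows of 250 bases before to 50 bases after each start came from RefSeq (GRCm38.p6), which matched 8 of the 10 members with 13 promoters in all, and 7 motifs were searched on both strands. The GC box GGGCGG, the core of Sp1 sites, was in 7 of 13 member promoters and in 35.7% of 32851 promoters of the same length. ACGTG, the core of hypoxia response elements, which overlaps E-boxes of the CACGTG kind, was in 6 of 13 and in 19.6%. Irs1 and Irs2, whose ratio also passed the test, each hold a GC box and ACGTG and are not printed. The E-box CAGCTG was in 2 of 13 and in 16.3%. The letters of the MEF2 site (3.69% of all promoters), the FoxO site GTAAACA (3.65%), the half-site AGGTCA (16.3%) and the ERR site TNAAGGTCA that contains it (1.28%) were not in these windows of the members. Both hexokinases hold ACGTG near a start and both Rab GTPase-activating proteins hold a GC box, as the following 30 bases around 1 match each show, in the direction of the gene. Capitals mark the motif, which in Hk2 reads as its reverse complement. For Hk1 the match lies in the more downstream of its 2 RefSeq starts, which are 39487 bases apart. For Tbc1d1 the GC boxes likewise lie in the more downstream of its 2 RefSeq starts. In each of these genes the window of the other start holds no match to the motif shown, and gene-level FPKM does not separate the starts.
Hk1 (chr10:62340397-62340426, minus strand): cgcgcgctccttACGTGgggaacgtgcagg
Hk2 (chr6:82774489-82774518, minus strand): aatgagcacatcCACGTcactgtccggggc
Tbc1d4 (chr14:101609197-101609226, minus strand): aggcgagatgagGGGCGGaggccggaggag
Tbc1d1 (chr5:64230232-64230261, plus strand): tgcccattcgagGGGCGGggccggaggagc

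These matches are a description of the letters. The part of these motifs in the genotype differences of Hk1 and Tbc1d4 was not tested.

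The training comparison asked whether wheel running altered these genes in either genotype. None of the 10 members was called in labelled WT or in labelled strNrip1-/- muscle, where 0% of all genes were called as well, and none was called on average over the genotypes, where 0.118% were. At an unadjusted p below 0.05 limma counted 1061 genes (8.33%) in labelled WT and 1544 genes (12.1%) in labelled strNrip1-/- muscle. Among labelled strNrip1-/- libraries the trained mean was the higher one for all 10 members, with a median log2 difference of 0.18 beside 0.009 over all genes. In labelled WT muscle 6 of 10 were higher, with a median of 0.08 beside 0.002. These comparisons share no libraries with each other, but each shares its libraries with the genotype comparisons above. With the same sum of FPKM in each library the median of all genes shifted by 0.16 in labelled strNrip1-/- muscle.

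Hk2 had the lowest p-value of the members for training within a genotype. In labelled strNrip1-/- muscle it was at 87.2, 80.2 and 89.8 FPKM in sedentary and at 102, 109 and 104 FPKM in trained libraries. The groups did not overlap, and the log2 difference of 0.29 (SE 0.09) had an unadjusted p of 0.00552 and a limma adjusted p of 0.246. In labelled WT muscle Hk2 was at 91.2, 81.5 and 95.2 FPKM in sedentary and at 88.6, 107 and 92.4 FPKM in trained libraries, with a log2 difference of 0.10 (limma adjusted p = 0.809).

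Akt2 in labelled strNrip1-/- muscle was higher in each trained library than in each sedentary one, with a log2 difference of 0.16 (limma adjusted p = 0.297). The log2 difference of Irs1 was 0.50 (limma adjusted p = 0.379) with overlapping groups, and that of Slc2a4 was 0.15, with a 95% interval of -0.01 to 0.32. In labelled WT muscle Slc2a1 was the member with the lowest p-value, and its trained libraries were all below its sedentary ones, by a log2 difference of -0.36 (limma adjusted p = 0.524), beside a median of -0.44 for the 6 Schwann cell and perineurium markers. In the same comparison the median was -0.59 for the 5 red blood cell markers and 0.07 for the 8 endothelial markers. For Tbc1d4 in labelled WT muscle the log2 difference was 0.39 (limma adjusted p = 0.612). The training groups did not overlap for 3 of 10 members in labelled WT (Slc2a1 lower, Insr and Irs1 higher) and for 3 of 10 in labelled strNrip1-/- muscle (Hk2, Insr and Akt2, higher), where 14.3% (7.76% higher and 6.5% lower) and 16.9% (9.4% higher) of all genes did not overlap. In 2 of these, Irs1 in the former and Insr in the latter, the nearest libraries were equal to the digits printed here.

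No member had a called interaction of genotype and training, as for 0% of all genes, of which 989 (7.76%) had an unadjusted p below 0.05 in limma. The lowest unadjusted p-values were those of Akt2, given above, and of Slc2a1, whose genotype difference was -0.36 in sedentary and 0.17 in trained muscle (interaction 0.52, SE 0.20, limma adjusted p = 0.612, beside a median interaction of 0.74 for the Schwann cell and perineurium markers). The median interaction of the 8 endothelial markers was 0.01. For Hk1 the genotype difference was larger in trained muscle by 0.34 (SE 0.17, limma adjusted p = 0.657), and for Tbc1d4 it was smaller by 0.27 (SE 0.26, limma adjusted p = 0.832). Neither difference between the states passed the test.

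The wider pathway was read from 5 lists with 92 genes besides the members, of which 79 were tested. By genotype, 1 of 79 was called higher and 3 lower in sedentary muscle, and 3 higher and 5 lower in trained muscle, while none was called by training in either genotype. Of all genes tested, 3.51% were called by genotype in sedentary and 5.98% in trained muscle, and the counts of each list below stand beside the same shares. In the receptor and proximal signalling list, 1 of 15 tested genes was called in sedentary and 2 in trained muscle (3.51% and 5.98% of all genes). Grb14, an adaptor that binds the activated insulin receptor and inhibits it, was at 22.5, 26.9 and 22.9 FPKM in labelled WT and at 40.3, 42.2 and 39.1 FPKM in labelled strNrip1-/- sedentary libraries. Its groups did not overlap in either state, and it rose by 0.74 (SE 0.13, limma adjusted p = 0.00954) in sedentary and 0.61 (SE 0.13, limma adjusted p = 0.0184) in trained muscle on the log2 scale. The related adaptor Grb10 was lower in trained muscle by a log2 difference of -0.47 (limma adjusted p = 0.0255), with means of 6.99 ± 0.732 and 4.90 ± 0.488 FPKM (SD, n = 3), and did not pass the test in sedentary muscle (-0.21, limma adjusted p = 0.365). Averaged over both states Grb10 was called lower (-0.34, limma adjusted p = 0.0139). Its interaction was not called (limma adjusted p = 0.696), so the states were not shown to differ. The sedentary call of Grb14 was lost without labelled WT replicate 1 (adjusted p = 0.0533), and the trained calls of Grb14 and Grb10 were lost without labelled WT replicate 1 or 3 or labelled strNrip1-/- replicate 1 or 3, with adjusted p up to 0.065 and 0.108. Without the 3 libraries high in slow fibre markers the adjusted p of Grb10 was 0.0550.

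In the list of GLUT4 vesicle traffic, 1 of 22 genes was called in sedentary and 3 in trained muscle (3.51% and 5.98% of all genes). Rhoq (TC10), a small GTPase linked to GLUT4 movement, was at 46.3 to 48.4 FPKM in labelled WT and at 33.0 to 36.2 FPKM in labelled strNrip1-/- sedentary libraries. In trained libraries it was at 47.1 to 49.7 and 31.9 to 35.6 FPKM. The log2 difference was -0.45 (limma adjusted p = 0.00344) and -0.51 (limma adjusted p = 0.00129), and no library overlapped. Without the 3 libraries high in slow fibre markers the sedentary call was lost (adjusted p = 0.0590). In trained muscle Rab13 was higher by 0.42 and Rab10, a Rab that Tbc1d4 acts on in fat cells, was lower with a log2 difference of -0.27 (limma adjusted p = 0.0431 and 0.0480). These 2 genes were named after their values were seen, and their calls were not followed under the alternatives.

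Among 8 tested sugar transporters and glucose phosphorylation genes, Slc2a3 alone was called in each state. Slc2a3 encodes GLUT3, a high-affinity transporter best known from neurons. It was at 3.49, 3.43 and 2.64 FPKM in labelled WT and at 1.29, 0.351 and 0.822 FPKM in labelled strNrip1-/- sedentary libraries, and at 4.86, 4.92 and 4.13 against 0.559, 1.93 and 1.93 FPKM in trained libraries. The log2 difference was -1.54 (SE 0.33, limma adjusted p = 0.0259) and -1.47 (SE 0.33, limma adjusted p = 0.0236). The sedentary call was lost without any of the 3 labelled WT libraries or labelled strNrip1-/- replicate 2 or 3 (adjusted p up to 0.103), and the trained call without any of the 3 labelled WT libraries (up to 0.0734). Both were lost without the 3 libraries high in slow fibre markers (0.101 and 0.0813). Of the 3 glucose transporter transcripts shown here, GLUT4 and GLUT1 thus did not pass the genotype test and GLUT3 did.

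Among 10 transcription factors and cofactors linked to Slc2a4, Nr4a1 was called in sedentary muscle and Mef2a in trained muscle. Nr4a1 (Nur77), an orphan nuclear receptor induced by contraction, was at 87.0 to 94.2 FPKM in labelled WT and 50.9 to 66.0 FPKM in labelled strNrip1-/- sedentary libraries, a log2 difference of -0.66 (limma adjusted p = 0.0359). In trained libraries it was at 100.1 to 108.8 and at 64.1 to 101.0 FPKM, and did not pass the test (-0.46, limma adjusted p = 0.0979) unless labelled strNrip1-/- replicate 1 was left out (0.00794). The sedentary call was lost without any of the labelled WT libraries or labelled strNrip1-/- replicate 1 or 2 (adjusted p up to 0.118), and without the 3 libraries high in slow fibre markers (0.217). Mef2a, a muscle factor that binds the Slc2a4 promoter, differed by -0.31 on the log2 scale in trained muscle (limma adjusted p = 0.0187) and was named after its value was seen. Of 24 genes of the PI3K, Akt and mTOR list only Inppl1, a lipid phosphatase, was called, in trained muscle (log2 difference 0.36, limma adjusted p = 0.0387), and it too was named after its value was seen. The calls of Mef2a and Inppl1 were not followed under the alternatives. Averaged over both states Nr4a1 was called lower (-0.56, limma adjusted p = 0.00584), and its interaction was not called (0.20, limma adjusted p = 0.846). Grb14 (0.68), Slc2a3 (-1.51) and Rhoq (-0.48) were also called on average (limma adjusted p = 7.84e-04, 0.00180 and 7.23e-05), where 8.8% of all genes were. These averaged calls of pathway genes were not followed under the alternatives.

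**Figure D4:**
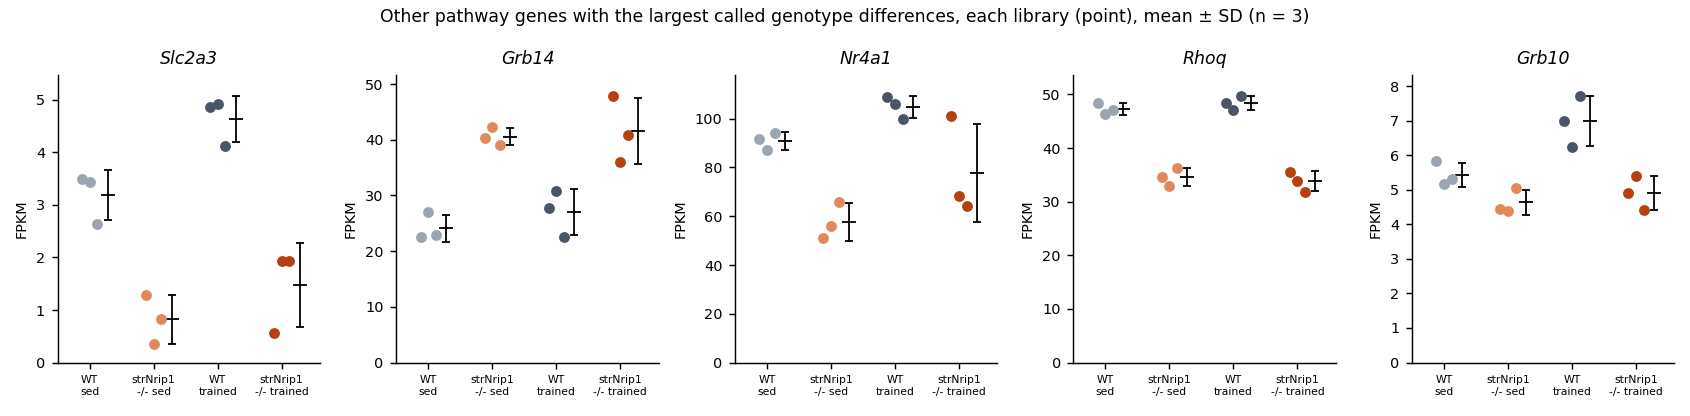
FPKM (vertical axis, from 0) of the 5 other pathway genes that the naming rule selected, with 1 point per library and the mean ± SD of 3 libraries. Grb14 lies higher and Slc2a3 and Rhoq lie lower in each labelled strNrip1-/- library than in each labelled WT library of the same training state.

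Last, the genes whose level most resembled that of Hk1 and Tbc1d4 over the 12 libraries were sought by Pearson correlation of log2(FPKM + 0.5). Closest to Hk1 were Rbpms (r = 0.97) and Coro6 (r = 0.96), and closest to Tbc1d4 was Tmem252 (r = 0.96). The 12 points share the 4 groups and the libraries, and these values, the highest among 12744 genes, are a description only.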

How the data were processed

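RNA from EDL was made into libraries with an unstranded kit. In the study's methods, reads were assigned to mm10 transcripts by Salmon 1.10.2, gene totals came from tximport, and DESeq2 1.44.0 was the test (versions per the submitters' processing notes). The authors deposited 1 FPKM value per gene and library. The annotation and the function that gave these values are not given in the sources used here. The other 8 columns hold the authors' fold changes and adjusted p-values and were not used. Gene positions came from GENCODE M21 (17745 of 17752 identifiers matched).

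Groups followed the labels. The members and lists were chosen with earlier results of these data known. limma 3.58.1 (R 4.3.3) was fitted to 4 group means over 12 libraries with a mean-dependent variance prior, two-sided. It was tested on simulated data. Besides the members, the genes named by rule are the 4 with the largest called change per comparison in the pathway lists, and the 2 most correlated with each called member, of which 1 is not reported here. Marker genes and others marked so in the text were named outside this rule. Column sums were 1.03 to 1.32 M FPKM. Depth and fragment length were chosen so that low values fell near whole fragment numbers. At the chosen setting 98.98% to 99.7% of them did, to a tolerance of 0.15. The 30% expected by chance is that of a setting fixed beforehand, not of the best one found. Such floors cover counting error only. Alternatives were other pseudocounts (0.1 and 1), filters (none and 5 FPKM), scalings, a replicate block, 2 groups alone and each library left out. Others, without the 3 libraries high in slow fibre markers and with GC and length trends removed, were chosen after seeing the data.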

Additional observations from a re-analysis of the deposited data

How the results depend on the processing

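Under the alternatives run, the averaged genotype differences of Tbc1d4 and Hk1 kept their direction and side of the threshold, apart from Hk1 with a minimum mean of 5 FPKM, where it was not tested. Of the values of members and of pathway genes named by rule, 54 changed sign. A further 50 lost a call and 5 gained one, counted only where the sign was kept. In sedentary muscle the 447 genes called became 143 without the 3 libraries high in slow fibre markers, 166 with the 2 groups alone and 163 to 377 with a library left out. The 2 members called there became 1 at a minimum mean of 5 FPKM (Hk1 not tested), 0 with the same sum of FPKM (adjusted p = 0.0672 for Hk1 and 0.0546 for Tbc1d4), 0 without the 3 libraries, 0 with the 2 groups alone (0.0574 and 0.106) and 0 to 2 with a library left out. In trained muscle the 762 genes became 398 without the 3 libraries, 445 with the 2 groups alone and 315 to 691 with a library left out. The 1 member called became 2 with the 2 groups alone (Tbc1d4 adjusted p = 0.0470) and was 1 in each fit with a library left out. For training in labelled WT muscle the 0 genes called became 8 at a minimum of 5 FPKM, 4 with quantile normalization, 1 with the same sum of FPKM, 2 with the same sum over genes not encoded in mitochondria and 0 to 30 with a library left out. In labelled strNrip1-/- muscle 0 became 5 at a minimum of 5 FPKM, 150 with the same sum of FPKM, 3 with the same sum over genes not encoded in mitochondria and 0 to 4 with a library left out. Interaction calls were 0 to 1 with a library left out. For the averaged genotype effect, members called went from 2 to 1 at a minimum of 5 FPKM and 2 to 3 with a library left out, and genes from 849 to 1193. For averaged training the 15 genes became 28 with quantile normalization, 26 with the same sum of FPKM, 9 with the GC and length trends removed, 0 without the 3 libraries and 1 to 190 with a library left out. The causes were not tested, other than that fits without libraries or groups hold fewer samples.

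Tbc1d4 was also called in trained muscle at a minimum of 5 FPKM (adjusted p = 0.0456), and Irs1 on average over the states with quantile normalization (0.0458). Among the pathway genes named by rule, calls were lost without the 3 libraries by Slc2a3 (adjusted p = 0.101 in sedentary, 0.0813 in trained), Nr4a1 (0.217) and Rhoq (0.0590) in sedentary and Grb10 in trained muscle (0.0550). With the same sum over genes not encoded in mitochondria they were lost by Nr4a1 (0.0953), Rhoq (0.107) and Grb10 (0.139), with the same sum of FPKM by Grb10 (0.182) and with quantile normalization by Nr4a1 (0.0530). With the 2 groups alone they were lost by Slc2a3 (0.0514 in sedentary, 0.0607 in trained), Grb14 (0.0704) and Grb10 (0.0798) in trained muscle. The same sum of FPKM shifted the median of all genes by -0.14 in the sedentary genotype comparison and by 0.20 in the interaction.

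Uncalled differences of members near 0 on the log2 scale changed sign. With the same sum of FPKM the sedentary genotype difference was -0.0496 for Insr and -0.0893 for Tbc1d1, the interaction was 0.17 for Insr and the averaged genotype difference was -0.00703 for Hk2 and -0.045 for Akt2. With the same sum over genes not encoded in mitochondria the sedentary genotype difference was 0.0168 for Slc2a4 and 0.0237 for Hk2, the interaction was -0.0179 for Tbc1d1 and the averaged genotype difference was 0.0443 for Slc2a4. Without the 3 libraries the sedentary genotype difference was -0.0376 for Tbc1d1, the trained genotype difference was -0.11 for Irs2, the labelled WT training difference was -0.0132 for Slc2a4, -0.0415 for Hk2, 0.000453 for Irs2 and -0.0154 for Tbc1d1, the interaction was -0.0782 for Irs1, the averaged genotype difference was 0.0401 for Slc2a4 and -0.0122 for Akt2 and the averaged training difference was -0.026 for Hk1. With quantile normalization the trained genotype difference was -0.0699 for Slc2a4 and the interaction was -0.0149 for Slc2a4 and -0.00714 for Tbc1d1. With the GC and length trends removed the trained genotype difference was -0.0303 for Slc2a4 and -0.00633 for Irs2, the interaction was -0.0251 for Tbc1d1, the averaged genotype difference was -0.0358 for Akt2 and the averaged training difference was -0.024 for Hk1 and -0.00278 for Akt2. With a library left out, the sedentary genotype difference ran from -0.0549 to 0.15 for Tbc1d1, the trained genotype difference ran from -0.00323 to 0.0961 for Slc2a4, -0.11 to 0.24 for Irs2 and -0.0808 to 0.22 for Tbc1d1, the labelled WT training difference ran from -0.00731 to 0.0917 for Slc2a4 and -0.28 to 0.0724 for Irs2, the labelled strNrip1-/- training difference ran from -0.0562 to 0.22 for Tbc1d4, the interaction ran from -0.14 to 0.16 for Tbc1d1, the averaged genotype difference ran from -0.0346 to 0.0163 for Slc2a4, -0.0106 to 0.017 for Akt2 and -0.00881 to 0.14 for Tbc1d1, the averaged training difference ran from -0.0132 to 0.0852 for Hk1 and the training difference of Tbc1d4 over Tbc1d1 from -0.0709 to 0.0996.

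The labels do not say what replicate numbers mark, and deviations of same-numbered libraries correlated at -0.105 to 0.241 (5 of 18 pairs over 0.1), with 6 of 18 best matched to their own number. With the replicate number as a block, 441 genes were called by genotype in sedentary, 756 in trained and 1132 on average, 4 in place of 0 by training in labelled WT, 0 in labelled strNrip1-/- and for the interaction, and 10 for averaged training, while the counts of members called stayed the same (2, 1, 0, 0, 0, 2 and 0). The block ended the sedentary calls of Slc2a3 (adjusted p = 0.0529) and Nr4a1 (0.0533). Sign flips of the paired libraries gave ratio differences of -0.89 for Hk2 over Hk1 and 0.77 for Tbc1d4 over Tbc1d1 (exact permutation, adjusted p = 0.0625 each, from the smallest p of 0.03125 that 64 sign flips allow) and 0.45 for Irs2 over Irs1 (0.125). With 0.5 FPKM added to both genes the last was 0.33, and it ran from 0.35 to 0.55 with a library left out.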
